A study of Mus musculus with 30 samples.

Results

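Gene expression in irradiated mouse liver was compared between 9 months and 4 months after exposure to 56Fe ions. The comparison rests on 6 of the 30 libraries of the study: 3 irradiated livers taken at month 9 (day 270) and 3 taken at month 4 (day 120). All mice were males of a strain that the labels write C57BL16. A dose of 0.2 Gy of 56Fe at 600 MeV/n had been given to the irradiated mice, and the control mice had received none. Total RNA from slices of frozen left liver lobes was sequenced after removal of ribosomal RNA. Each time was sampled from different mice, whose age at exposure is not given in the sources used here, so that ageing and time since exposure run together within an arm. The 6 control livers of the same months (3 at each) served to compare that passage of time without irradiation. Of the genes in the deposited count table, 19685 passed the filter on low counts and were tested. Expression levels are CPM, read counts scaled to library size with TMM factors. They are given for each of the 3 livers of a group or as mean ± SD (n = 3). Changes are log2 fold changes of month 9 against month 4, with the standard error (SE) of the fit. A gene was called changed at an edgeR Benjamini-Hochberg adjusted p under 0.05.

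The 56Fe ion is a heavy, densely ionising component of galactic cosmic rays, studied in mice as a model of exposure in space. The liver carries out protein secretion, lipid synthesis and detoxification, and its hepatocytes hold large pools of chaperones in the cytosol and the endoplasmic reticulum (ER). Cytosolic heat shock genes are driven by the factor HSF1 when unfolded proteins accumulate, and ER chaperone genes by ATF6 and XBP1 in the unfolded protein response. Cholesterol synthesis genes are driven by SREBP2 when the sterol content of ER membranes is low.

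The 6 libraries held 13359559 to 16569310 counts assigned to genes, within the range of 7995248 to 20215995 of the whole series. The summed level of 11 hepatocyte markers was similar in both groups, at 101600 to 115900 CPM at month 4 and 114700 to 129700 CPM at month 9. The month 9 livers were not alike. In a principal component analysis of the 12 libraries of months 4 and 9 in both arms, the first component held 23.7% of the variance. Irradiated month 9 replicate 1 lay at -68.8 and replicate 3 at -33.6 on it, while replicate 2 lay at 18.3, beside the irradiated month 4 libraries at 20.6 to 29.7. Control month 4 replicate 3 also lay apart, at 63.0 on the second component. The long noncoding RNA Gm26917, taken as a measure of library composition, made up 0.827% to 0.985% of counts in the month 4 libraries and 0.460% to 0.585% in those of month 9. Its difference did not pass the test (log2 -0.72, SE 0.22, edgeR adjusted p = 0.0566).

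Between month 4 and month 9, 736 genes changed in irradiated livers (3.74% of those tested): 469 rose (2.38%) and 267 fell (1.36%). The 3 libraries of month 9 lay wholly above or below the 3 of month 4 for 664 of these 736 genes, and for 4626 of all genes tested (23.5%). The called changes were moderate in most genes, with a median of 0.73 for those that rose and -0.77 for those that fell, and 119 and 83 genes respectively changed by more than 1 on the log2 scale. Relative to the month 4 mean, the median gene that rose stood at 0.97 in replicate 1, 0.32 in replicate 2 and 0.72 in replicate 3 of month 9. For the median gene that fell these values were -0.95, -0.51 and -0.78. All 3 livers thus lay in the called direction at the median, and replicate 2 moved least. The genes were chosen by these same livers, so agreement in direction is largely built in. Over all genes tested the medians were -0.04, -0.02 and -0.05 in replicates 1, 2 and 3. Over the same interval no gene was called in control livers by edgeR (0% of 19685), with 1361 at an unadjusted p under 0.05. DESeq2 called 32 genes there and limma voom 14.

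These counts rest on the spread shared by all 30 libraries, and on single livers. With the 6 libraries fitted alone, edgeR called 0 genes (smallest adjusted p = 0.105, 2864 at an unadjusted p under 0.05). Without month 9 replicate 1 the number called was 34, without replicate 2 it was 1808 and without replicate 3 it was 272. Leaving out month 4 replicates 1, 2 and 3 in turn gave 100, 91 and 265. Upper quartile scaling, which moved the median of all genes from -0.02 to -0.09, called 398 higher and 412 lower, so the excess of genes that rose depended on the scaling. Of the 67 called genes named in this section, 13 kept their call in all 16 other settings in which libraries outside the comparison helped to set the spread. They are Bcl2l11, Chordc1, Dnaja1, Dnajb1, Eif4e, Eml4, Hyal2, Ints2, Kdm6b, Nabp1, Rock2, Tfrc and Tnfrsf12a.

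Heat shock genes, cytosolic except for the mitochondrial pair Hspd1 and Hspe1, formed the most uniform group. Of 18 tested, 14 rose and 0 fell (77.8% called, beside 3.74% of all genes tested). Their median log2 change was 1.26 over the 18, against -0.02 for all genes tested. In control livers the median of the same 18 genes was -0.51. Hspa8, the constitutive HSP70 chaperone (chromosome 9, 40800984 to 40810087, GRCm38), stood at 373, 532 and 767 CPM in the 3 irradiated livers of month 4 and at 1746, 881 and 1259 CPM in those of month 9. Every month 9 liver lay above every month 4 liver, and the change was 1.22 (SE 0.26, edgeR adjusted p = 0.0107). Dnaja1, a J-domain co-chaperone of HSP70 (chromosome 4, 40722150 to 40737149), was at 116, 135 and 176 CPM at month 4 and at 708, 237 and 612 CPM at month 9. Its groups lay apart, and together with Hyal2, a gene that fell, it had the smallest adjusted p of all genes tested (log2 1.87, SE 0.27, edgeR adjusted p = 0.00195). Dnajb1, another J-domain protein, rose from 22.1 ± 4.2 to 161 ± 114 CPM (n = 3 each), with replicate 2 at 31.6 CPM and the other two at 205 and 247 CPM. The groups of Dnajb1 did not overlap, and its call held without any single liver.

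The inducible HSP70 gene Hspa1b was at 6.72, 5.83 and 11.2 CPM at month 4 and at 87.6, 17.3 and 90.4 CPM at month 9 (log2 3.04, SE 0.64, edgeR adjusted p = 0.0136). Hspa1b and Hspa1a are near-identical copies, so the split of reads between them is uncertain. Hspa1a was counted at 0.134 to 0.201 CPM at month 4 and 0.301 to 0.691 CPM at month 9 and was not called. Hsp90aa1, the inducible HSP90, rose from 141 ± 52 to 443 ± 191 CPM, a log2 change of 1.66 (SE 0.37). Hspa4l, a nucleotide exchange factor for HSP70, rose by 1.15 (SE 0.24). Chordc1, an HSP90 co-chaperone, rose from 55.1 ± 13.1 to 109 ± 11 CPM with replicates 1, 2 and 3 of month 9 all close, at 113, 97.0 and 117 CPM. It was thus the member with the least spread among the month 9 livers described here. Hsph1, Hspe1, Hspb1, Bag3 and Stip1 also rose, by 1.83, 1.30, 1.77, 1.47 and 0.80. They were named after their values were seen, as were Hspd1 and Creld2. Hspd1, the mitochondrial HSP60 that shares its promoter with Hspe1, stood at 301 to 346 CPM at month 4 and 367 to 554 CPM at month 9 and did not pass (edgeR adjusted p = 0.0769). Exons of the 2 genes overlap on opposite strands, and the strand setting of the counting is not given in the sources used here. The same uncertainty holds for other genes named with values here whose exons overlap a gene of the opposite strand, among them Dnaja1, Manf, Hsp90b1, Eif2ak3, Hmgcs1, Idi1, Ints2, Kdm6b, Hps4, Cideb, Esrra, Nags, Cdkn1a, Sult1a1, Krt8, Alas1 and Dbp.

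The count of heat shock genes that rose depended on single livers, while their median change stayed positive. It was 3 of 18 without month 9 replicate 1 (median 0.95), 15 without replicate 2 (1.52) and 7 without replicate 3 (1.29). Leaving out month 4 replicate 1 or replicate 2 left 3 each, with medians of 1.11 and 1.24, and leaving out replicate 3 left 11. With the Gm26917 level as a covariate 3 were called (median 1.12). With the 6 libraries alone 0 of the 17 members then tested were called, and the median was 1.18.

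Promoter windows from RefSeq (250 bases before to 50 after the start, GRCm38.p6) were searched on both strands for the heat shock element. It was written as 3 alternating GAA and TTC units, each separated by 2 bases of any kind. Windows matched 14 of the 18 heat shock genes, and 4 of the 14 held the element (Chordc1, Hspd1, Hspe1 and Hsph1), against 0.558% of the 12735 tested genes with a window and 0.603% of all windows. The matches of Hspd1 and Hspe1 are the same bases of their shared promoter, and Hspd1 was not called. Of the genes that rose, 375 had a window and 1.60% of these held it, and of the genes that fell, 178 had a window and 0% held it. The stretches of 3 members that were called are shown because their transcripts rose together, with the matched units in capitals and 30 bases each. A match describes the letters only, and all 3 stretches lie in annotated exons of at least 1 transcript.
Hspe1, chr1:55088053-55088082, plus strand: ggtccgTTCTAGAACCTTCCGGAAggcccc
Hsph1, chr5:149636279-149636308, minus strand: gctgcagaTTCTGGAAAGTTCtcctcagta
Chordc1, chr9:18292260-18292289, plus strand: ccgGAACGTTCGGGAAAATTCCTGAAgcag
In Hspe1 the capitals run from 89 to 72 bases before the start, and in Chordc1 from 4 bases before it to base 19. In Hspe1 and Chordc1 overlapping matches give a longer run of units.

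**Figure D1:**
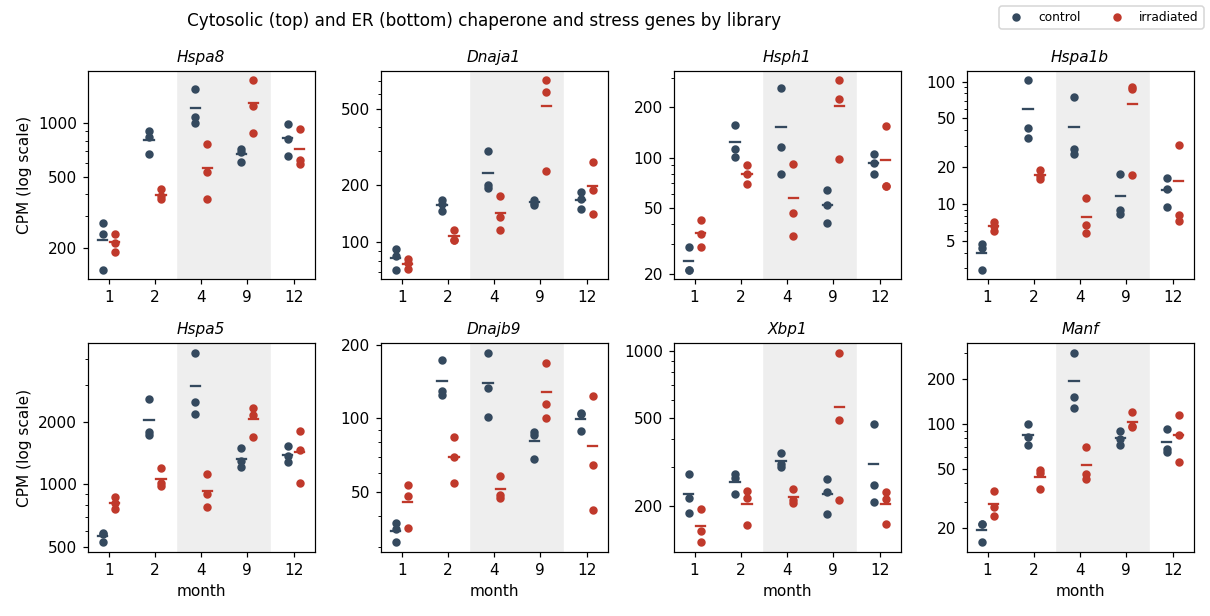
CPM (log axis) of 4 cytosolic heat shock genes (top) and 4 genes of the ER stress response (bottom) in every library, by month and arm, with a short line at each group mean (n = 3) and months 4 and 9 shaded. For Hspa8 the irradiated livers stood at 373 to 767 CPM at month 4 and 881 to 1746 CPM at month 9, while the control livers stood at 1006 to 1553 and 608 to 720 CPM.

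Control livers had the reverse order of levels for these genes, as the plot of chaperone genes by month shows. Hspa8 was at 1081, 1006 and 1553 CPM in control livers of month 4 and at 720, 690 and 608 CPM in those of month 9, so its month 4 controls lay above all irradiated livers of that month. That control change was not called (log2 -0.85, edgeR adjusted p = 0.496). The difference between arms in the month 4 to month 9 change was called for 15 of the 18 heat shock genes. Of all genes tested it was called for 4.08%. All 15 were in the direction of a larger change in irradiated livers. That count was 9 without control month 4 replicate 3 and 9 with the Gm26917 covariate. For Hspa8 the difference was 2.07 (SE 0.36, edgeR adjusted p = 0.00259) and for Chordc1 1.79 (SE 0.23, edgeR adjusted p = 0.00039).

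Genes of the ER chaperone list, which also holds the transcription factor gene Xbp1, were higher at month 9 too. Of 17 tested, 4 rose (Hspa5, Dnajb9, Xbp1 and Manf) and 0 fell (23.5% called, beside 3.74% of all genes tested). All 17 had log2 changes above 0, with a median of 0.51. In control livers all 17 were below 0, with a median of -0.60. Hspa5, which encodes the main ER HSP70 (BiP; chromosome 2, 34771970 to 34777547), was at 778, 904 and 1116 CPM at month 4 and at 2154, 1683 and 2319 CPM at month 9. The groups did not overlap (log2 1.14, SE 0.22, edgeR adjusted p = 0.00657). In control livers Hspa5 was at 2470, 2173 and 4270 CPM at month 4 and at 1492, 1207 and 1288 CPM at month 9. The control groups did not overlap either, in the reverse order, and that change did not pass (log2 -1.16, edgeR adjusted p = 0.059). Dnajb9, an ER J-domain protein, rose from 51.6 ± 6.0 to 128 ± 36 CPM (log2 1.31, SE 0.28). Manf, a secreted ER stress protein, was at 42.8, 45.8 and 69.4 CPM at month 4 and at 96.8, 94.6 and 120 CPM at month 9, with all 3 month 9 livers higher. Xbp1, the transcription factor of the response, was at 208 to 239 CPM at month 4 and at 980, 215 and 489 CPM at month 9. Replicate 2 of Xbp1 thus lay within the month 4 range.

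Among 13 genes of ER stress sensing and degradation, the sensor kinases Eif2ak3 (PERK) and Ern1 (IRE1) rose, by 0.84 (SE 0.17) and 0.93 (SE 0.25), and 0 fell. The share called was 15.4%, beside 3.74% of all genes tested. Eif2ak3 was higher in every month 9 liver, at 42.2, 30.7 and 51.6 CPM against 21.3 to 24.5 CPM. Ern1 replicate 2 of month 9, at 146 CPM, lay among the month 4 livers at 140 to 163 CPM. Hsp90b1 and Calr, abundant ER chaperones, had changes of 0.67 and 0.37 that did not pass (edgeR adjusted p = 0.121 and 0.289). Creld2, an ER protein induced in the response, was at 26.1, 32.1 and 51.5 CPM at month 4 and at 85.9, 80.7 and 116 CPM at month 9. It did not pass either (log2 1.36, SE 0.42, edgeR adjusted p = 0.0738). Its difference between arms did, at 3.51 (SE 0.60, edgeR adjusted p = 0.00375), since its control livers went from 140 to 479 CPM at month 4 to 50.6 to 84.5 CPM at month 9. Without month 9 replicate 1 or month 4 replicate 1 no gene of the ER chaperone list was called (medians 0.59 and 0.45), and without month 9 replicate 3 only 1 was (0.37). Without month 4 replicate 2 it was also 1 (0.46). For the difference between arms 8 of the 17 genes of this list were called, all above 0, beside 4.08% of all genes tested. It was 4 of the 17 without irradiated month 4 replicate 1 or control month 4 replicate 3.

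The ER stress element, CCAAT and CCACG separated by 9 bases, was matched in the promoter windows of 7 of 15 genes of the ER chaperone list with a window, against 0.188% of tested genes. It was found for 2 of 375 genes that rose (0.533%) and 0 of 178 that fell. Of the 4 genes of the ER chaperone list that rose, Hspa5 alone held a match. Its stretch is shown with those of Creld2 and Calr, whose changes did not pass, with the element in capitals (the 2 latter on the reverse strand).
Hspa5, chr2:34772020-34772049, plus strand: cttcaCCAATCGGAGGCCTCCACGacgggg
Creld2, chr15:88819515-88819544, plus strand: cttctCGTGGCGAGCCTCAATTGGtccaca
Calr, chr8:84847069-84847098, minus strand: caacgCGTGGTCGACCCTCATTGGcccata
The element starts 65, 126 and 162 bases before the start of Hspa5, Creld2 and Calr. The same windows were also searched for the E-box, the D-box, a PPAR element and an interferon element. The E-box was found in 16.5% of genes that rose and 11.2% of those that fell, against 10.8% of tested genes. For the interferon element these shares were 1.6%, 1.69% and 3.86%. For the D-box they were 0.533%, 0% and 0.801%, and for the PPAR element 0%, 0% and 0.055%. Differences between these shares were not tested.

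Cholesterol synthesis genes rose as a second group. Of 24 tested, 11 rose and 0 fell (45.8% called, beside 3.74% of all genes tested), with a median of 0.75. Hmgcs1, a synthase of an early step of the pathway (chromosome 13, 119690379 to 119708260), was at 582, 907 and 482 CPM at month 4 and at 2175, 1231 and 1093 CPM at month 9. Each month 9 liver lay above the highest month 4 liver, and replicate 1 stood above the other two (log2 1.19, SE 0.24, edgeR adjusted p = 0.00944). Sqle, squalene epoxidase, was at 84.9, 100.2 and 70.6 CPM at month 4 and at 391, 126 and 168 CPM at month 9 (log2 1.42, SE 0.32), again without overlap. Msmo1 and Idi1, enzymes of steps after that of Hmgcs1, rose by 1.13 and 1.28 (SE 0.23 and 0.26).

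**Figure D2:**
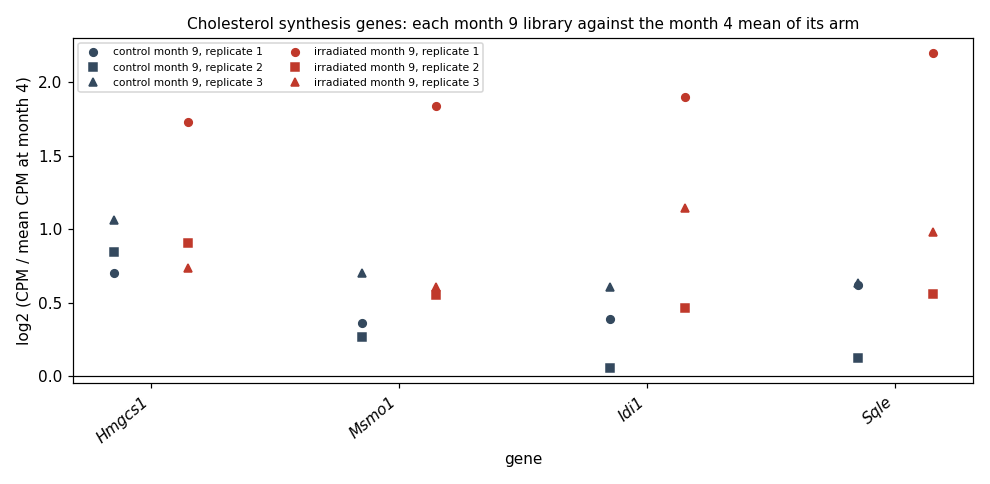
Log2 ratio of each month 9 library to the mean of month 4 of the same arm, for 4 of the cholesterol synthesis genes called in irradiated livers (Hmgcs1, Msmo1, Idi1 and Sqle); symbols stand for replicates and colours for arms. Irradiated replicate 1 was the highest library for each gene, at 1.73 for Hmgcs1, where irradiated replicates 2 and 3 were at 0.906 and 0.735 and the control libraries at 0.70 to 1.06.

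The plot of cholesterol genes by library shows how far 1 liver carried these calls. Without month 9 replicate 1 only 1 of the 24 genes was called and the median was 0.34. Without month 4 replicate 1 it was 1 as well (0.70), and without month 4 replicate 3 it was 4 (0.71). Without month 4 replicate 2 it was 6 (0.84), and without month 9 replicates 2 and 3 it was 11 and 13. In control livers the median was 0.44, with 22 of 24 genes above 0 and none called (6 with a replicate block in the control libraries alone). The difference between arms was called for 1 of the 24 genes, beside 4.08% of all genes tested. For Hmgcs1 the difference was 0.31 (edgeR adjusted p = 0.672).

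Among genes outside these groups, the largest rises described here were highest in the same liver. Tnfrsf12a, the receptor of the cytokine TWEAK (chromosome 17, 23675445 to 23677468), was at 4.39, 3.55 and 4.56 CPM at month 4 and at 181, 4.81 and 40.5 CPM at month 9 (log2 4.17, SE 0.73, edgeR adjusted p = 0.00657). Replicate 2 exceeded the month 4 livers by little, and replicate 1 exceeded them by far. Ppl, a desmosomal plakin, was at 7.40 to 15.3 CPM at month 4 and at 314, 18.6 and 106 CPM at month 9. Slc10a2, the sodium-dependent bile acid transporter, was at 15.9 to 27.2 CPM and then at 341, 77.1 and 119 CPM (log2 3.04, SE 0.57). Bcl2l11, which encodes the pro-apoptotic protein BIM, was at 6.03 to 7.31 CPM and then at 81.1, 8.42 and 31.8 CPM. Srxn1, which reduces oxidised peroxiredoxins, rose by 2.51 (SE 0.45), Rcan1, an inhibitor of calcineurin, by 2.20 (SE 0.44) and Pfkfb3, a regulator of glycolysis, by 2.07 (SE 0.55). Noct, which encodes the deadenylase-like protein nocturnin, was at 5.28, 12.7 and 20.7 CPM at month 4 and at 157, 36.4 and 91.3 CPM at month 9.

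Other genes rose by smaller amounts. Eif4e, the cap-binding translation factor (chromosome 3, 138526179 to 138559696), was at 30.5, 33.8 and 36.0 CPM at month 4 and at 68.6, 49.5 and 59.0 CPM at month 9 (log2 0.82, SE 0.13, edgeR adjusted p = 0.0022). Nabp1, a single-stranded DNA binding protein, was at 21.5 to 29.3 CPM and then at 102, 37.6 and 68.4 CPM. Rock2, a kinase that acts on the cytoskeleton, rose by 1.26 (SE 0.21) and Eml4, a microtubule-binding protein, by 1.32 (SE 0.21), with replicate 2 of both near the month 4 livers. Ints2, a subunit of the Integrator complex, rose from 14.4 ± 2.9 to 25.2 ± 3.1 CPM. Tfrc, the transferrin receptor, was at 35.9 to 59.4 CPM at month 4 and at 104, 107 and 92.3 CPM at month 9, with the 3 livers of month 9 close together (log2 1.14, SE 0.21, edgeR adjusted p = 0.00608). In control livers the means of months 4 and 9 were 51.5 and 38.4 CPM for Eif4e and 40.6 and 26.0 CPM for Nabp1. They were 24.2 and 17.2 CPM for Ints2, 85.5 and 56.9 CPM for Tfrc and 40.6 and 38.8 CPM for Eml4. For these genes the irradiated month 4 mean was below both control means. For Rock2 it was 64.6 CPM, between control means of 65.8 and 63.0 CPM.

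**Figure D3:**
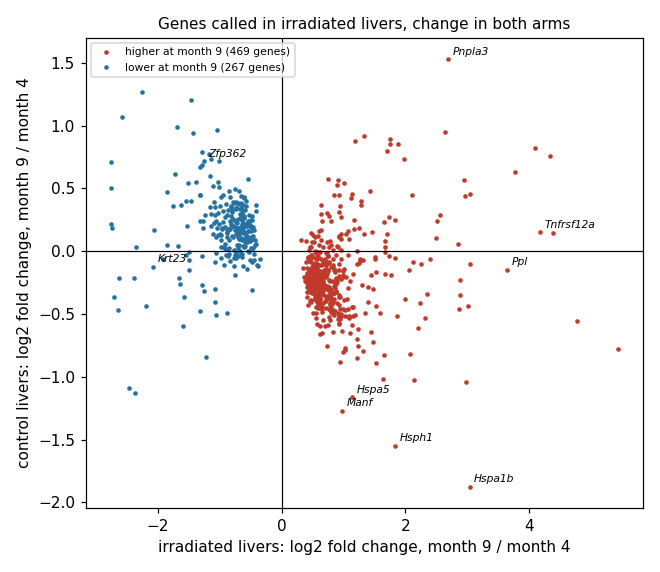
Log2 fold change of month 9 against month 4 in irradiated livers (x axis) and in control livers (y axis) for the 469 genes that rose and the 267 that fell in irradiated livers, 1 point per gene. Of the genes that rose, 384 lay below 0 in control livers, and of those that fell, 211 lay above 0.

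The genes that changed in irradiated livers were compared with the control arm. Its libraries entered the filter, the scaling and the spread of the fit, but not the contrast that chose the genes. Of the 469 that rose, 384 had a control change below 0, and of the 267 that fell, 211 had one above 0, while among all genes tested 9316 were below and 10368 above. The medians in control livers were -0.22 and 0.18. The difference between arms in the change from month 4 to month 9 was called for 804 genes (4.08%), 547 of them with a larger log2 change in irradiated livers. Upper quartile scaling gave 429 above and 407 below 0. The count was 248 without control month 4 replicate 3. It was 317 and 319 without irradiated month 4 replicates 1 and 2, and 314, 1738 and 393 without irradiated month 9 replicates 1, 2 and 3. Without control month 4 replicate 1 it was 490, and without control month 9 replicates 1, 2 and 3 it was 399, 505 and 421. The smallest adjusted p-values belonged to Chordc1, Hspa5, Eif4e, Ints2 and Nabp1 on the higher side. On the lower side they belonged to Hyal2, Kdm6b and the zinc finger gene Zfp362 (Zfp362 -1.97, SE 0.33, edgeR adjusted p = 0.00259).

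Several genes that fell did so to a similar level in all 3 livers. Hyal2, a hyaluronidase (chromosome 9, 107567945 to 107572779), was at 38.5, 42.8 and 39.1 CPM at month 4 and at 20.5, 25.6 and 24.2 CPM at month 9. Its groups lay well apart, and it shared the smallest adjusted p with Dnaja1 (log2 -0.77, SE 0.11, edgeR adjusted p = 0.00195). Tns2, a focal adhesion protein, was at 72.7 to 77.0 CPM and then at 35.5, 45.6 and 36.4 CPM (log2 -0.92, SE 0.15). Kdm6b, which removes methyl groups from histone H3 lysine 27, went from 17.6 ± 1.8 CPM to 7.17, 8.79 and 9.58 CPM in the 3 livers (log2 -1.04, SE 0.16). Hps4, a subunit of a complex for lysosome-related organelles, was at 20.4, 22.1 and 23.5 CPM and then at 12.0, 11.95 and 12.8 CPM. Tnrc18, a chromatin protein, fell by 0.99 (SE 0.16). In control livers the means of Hyal2, Tns2 and Kdm6b were 32.7, 51.1 and 8.19 CPM at month 4. At month 9 they were 37.6, 53.1 and 10.1 CPM. For Hps4 the control means of months 4 and 9 were 14.5 and 13.8 CPM, and for Tnrc18 41.4 and 45.3 CPM. The irradiated month 4 mean of each of these genes was above both control means. Larger falls were seen in genes of lower level or wider spread. Krt23, a keratin, was at 3.15, 5.30 and 4.16 CPM at month 4 and at 0.691, 1.80 and 0.479 CPM at month 9 (log2 -2.08, SE 0.50). Mn1, a transcriptional coactivator, was at 57.6 to 72.3 CPM and then at 11.4, 39.1 and 24.6 CPM. Slc25a34, Mapk4, Cspg5, Spry4 and Mcc fell by 1.53, 1.55, 1.5, 1.5 and 1.32.

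In a list of 23 transcription factors written for hepatocyte identity, 2 fell and 0 rose (8.7% called, beside 3.74% of all genes tested). The list's median was -0.16, and 10 of its members had a change above 0. Esrra, placed in this list, is an orphan receptor that drives mitochondrial genes, and it fell by 0.62 (SE 0.15). Of 28 replication-dependent histone genes, whose transcripts lack poly(A) tails, Hist1h1e and Hist1h4h fell by 0.84 and 0.63 (7.14% called). The histone list's median was -0.36 against 0.18 in control livers. Cideb, a lipid droplet protein, and Nags, which makes the activator of the urea cycle, fell by 0.70 and 0.48.

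Genes that fell and genes that rose differed in base composition. The median GC content of the transcripts was 55.6% for genes that fell and 43.8% for genes that rose, against 48.6% for all genes tested. GC content was available for 19643 of the 19685. Over 5 equal bins of the genes at 1 CPM or more at month 4, the median change went from 0.17 in the bin of lowest GC to -0.12 in that of highest GC. In control livers it went the other way, from -0.10 to 0.08. All 3 month 9 livers showed this slope, replicate 1 least, with medians of -0.06, -0.17 and -0.21 in the highest bin for replicates 1, 2 and 3. With transcript GC content as an offset, a setting chosen after seeing the data, 306 genes rose and 136 fell, and 14 heat shock genes and 12 cholesterol genes were called. The part of GC content in the other calls was not tested gene by gene.

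**Figure D4:**
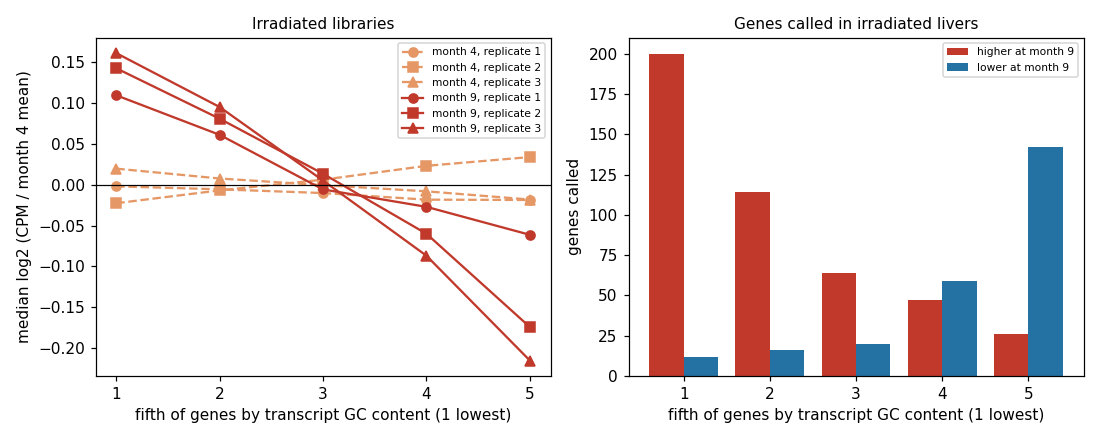
Left, median log2 ratio of each irradiated library to the month 4 mean in 5 bins of genes by transcript GC content, with 0.5 CPM added to both; right, number of genes called higher and lower per bin. The 3 month 9 libraries fall from 0.11 to 0.16 in bin 1 to -0.06 to -0.21 in bin 5, and called genes go from 200 higher and 12 lower to 26 higher and 142 lower.

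Of 30 p53 target genes, Ddit4, Polk and Cdkn1a rose and 0 fell (10% called, beside 3.74% of all genes tested). The list's median was 0.26 in irradiated and 0.23 in control livers. Cdkn1a, the cell cycle inhibitor p21, was at 1.92, 1.94 and 1.21 CPM at month 4 and at 8.03, 4.13 and 7.87 CPM at month 9 (log2 1.98, SE 0.55, edgeR adjusted p = 0.0449). Ddit4, an mTOR inhibitor, was at 3.15 to 6.57 CPM and then at 9.24, 15.9 and 29.0 CPM, and like Cdkn1a it is also induced by glucocorticoids. Polk, a translesion polymerase, rose by 0.57. Mdm2, which degrades p53, and the receptor gene Eda2r did not pass, at 0.33 and 0.73 (edgeR adjusted p = 0.129 and 0.359). The difference between arms was not called for any of these 5 genes. It was called below 0 for 2 other members, both named after their values were seen: Sesn2, a stress-induced regulator of mTOR (-1.17, SE 0.29, edgeR adjusted p = 0.0224), and Gdf15, a secreted stress cytokine (-2.78, SE 0.77, edgeR adjusted p = 0.0453). Neither was called in irradiated livers alone. The Cdkn1a call was lost in 12 of 18 other settings.

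Other lists held 1 to 3 called members, beside 3.74% of all genes tested. Among conjugation enzymes Ugdh, Sult1d1 and Sult1a1 rose (3 of 40, 7.5%), by 0.80, 0.93 and 0.63. Among antioxidant genes Txnrd1, a thioredoxin reductase, rose by 0.57 beside Srxn1 (2 of 26, 7.69%). In the proteasome Psmd14 and Psmd7 rose by 0.51 and 0.48 (2 of 27, 7.41%), and 26 of 27 subunits had values above 0, against 9477 of all 19685 genes. The antigen presentation gene H2-Q6 rose by 0.73, and reads of near-identical class I genes may be shared with it. Of 18 glucocorticoid-induced genes Ddit4, Cdkn1a and Sult1e1 rose (16.7%), with a median of 0.68 in irradiated and -0.20 in control livers. Sult1e1, the oestrogen sulfotransferase, was called at low levels, with 0 to 0.201 CPM at month 4 and 4.23, 0.226 and 0.753 CPM at month 9. Pnpla3, a lipase that follows lipogenesis, was at 0.891 to 1.68 CPM at month 4 and at 6.65, 18.7 and 0.958 CPM at month 9. Replicate 2 was the highest liver for Pnpla3, its groups overlapped, and its call was lost in 13 of 18 other settings.

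**Figure D5:**
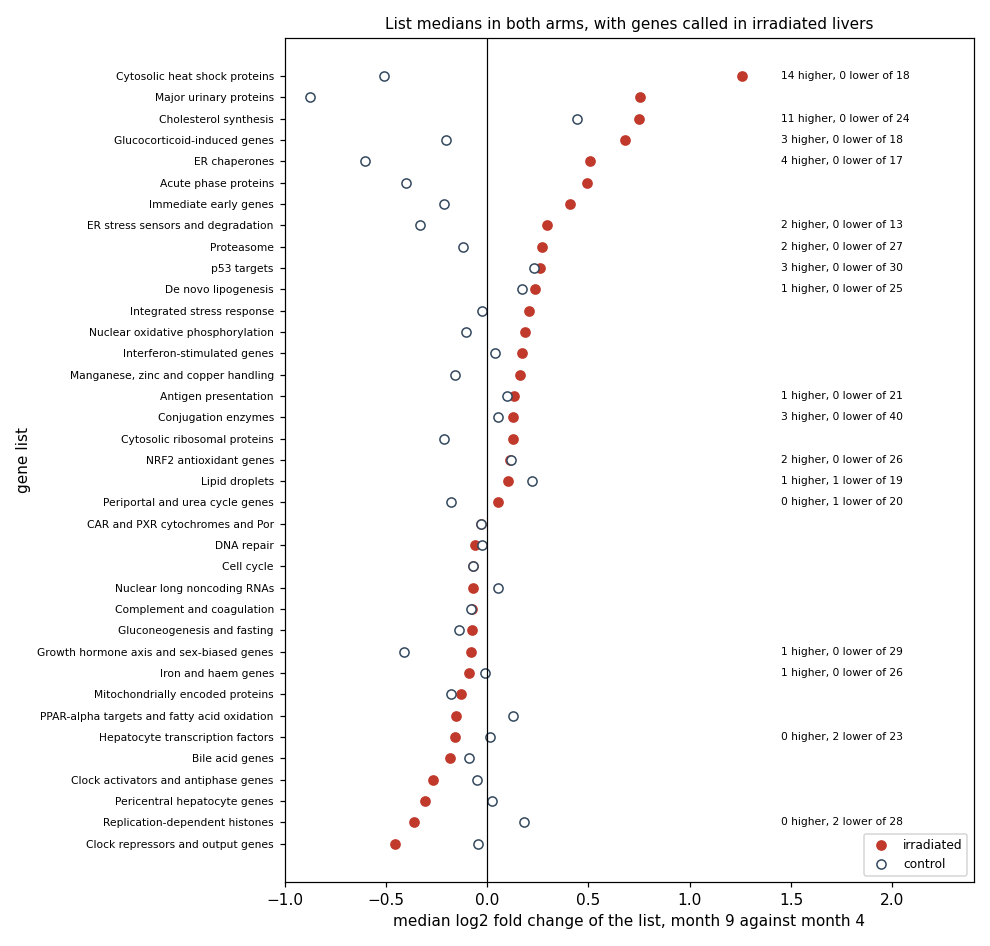
Median log2 fold change of month 9 against month 4 over the tested members of each pathway list, in irradiated livers (filled) and control livers (open), with the number of members called in irradiated livers at the right. Heat shock proteins lie at 1.26 and -0.51 in the 2 arms, cholesterol synthesis at 0.75 and 0.44, and clock repressors and output genes at -0.46 and -0.05.

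Of the 37 pathway lists, 20 held no called member. They held 533 genes, of which 61 had an unadjusted p under 0.05, 15 were called by DESeq2 and 12 by limma voom. Over all 19685 genes tested these counts were 3726, 1424 and 1473. The 20 lists covered the circadian clock, DNA repair, the cell cycle, the integrated stress response, ribosomal proteins, oxidative phosphorylation, fatty acid oxidation, bile acids, gluconeogenesis, drug-metabolising cytochromes, pericentral genes, acute phase proteins, complement, interferon responses and major urinary proteins. The plot of list medians sets both arms side by side. Major urinary proteins, pheromone carriers made in male liver, had a median of 0.76 in irradiated and -0.88 in control livers with 0 of 13 called. Their summed level was 14070 to 16730 CPM in irradiated livers of month 4 and 9814 to 29930 CPM in those of month 9. Acute phase proteins had medians of 0.49 and -0.40, with irradiated sums of 33300 to 34970 and then 26710 to 53040 CPM. For both lists the month 9 range reached below and above that of month 4. Of 61 nuclear subunits of oxidative phosphorylation 58 had a change above 0, at a median of 0.19. Single livers were far out for some genes that did not pass. The metallothionein Mt1 was at 6.65, 11.1 and 1.54 CPM at month 4 and at 616, 4.81 and 152 CPM at month 9, and Mt2 was at 0.0671 to 0.206 CPM and then at 19.7, 0.150 and 3.01 CPM. Replicate 2 of both lay within the month 4 range, and neither passed (edgeR adjusted p = 0.216 and 0.201). Socs2, a feedback inhibitor of growth hormone signalling, showed the same order, at 12.6 to 20.1 CPM and then at 207, 12.6 and 77.1 CPM (edgeR adjusted p = 0.0766). Alas1, the first enzyme of haem synthesis, was at 85.0, 280 and 436 CPM at month 4 and at 583, 647 and 528 CPM at month 9. Cyp7a1, the hydroxylase that starts the classical route to bile acids, was at 60.1 to 108 CPM and then at 181 to 284 CPM. The groups of Alas1 and Cyp7a1 did not overlap, yet their changes did not pass (edgeR adjusted p = 0.170 and 0.175). The clock output gene Dbp was at 26.5 to 48.0 CPM and then at 10.5, 26.5 and 7.74 CPM (edgeR adjusted p = 0.242), and the hour of collection is not given in the sources used here.

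Markers of other liver cells were examined in the same fit. In bulk tissue, fewer cells of a type and less RNA per cell cannot be told apart. Of 139 markers in 10 lists, hepatocyte markers left aside, edgeR called 1 (0.719%, Krt8), 18 had an unadjusted p under 0.05, DESeq2 called 7 and limma voom 5. Over all 19685 genes tested these counts were 736, 3726, 1424 and 1473. The summed level of 25 macrophage markers was 582 to 793 CPM at month 4 and 727 to 1588 CPM at month 9, with a median change of 0.81. Of these 25, edgeR called 0, but 8 had an unadjusted p under 0.05, DESeq2 called 3 and limma voom 4. For 9 cholangiocyte markers these counts were 0, 3, 2 and 0. Vsig4 and Clec4f, markers of resident Kupffer cells, were at 13.2 to 19.2 and 72.6 to 105 CPM at month 4 and at 19.2 to 51.7 and 91.0 to 175 CPM at month 9. For 12 neutrophil markers the sum was 6.17 to 8.25 CPM and then 7.22 to 35.1 CPM, and Ly6g and Elane did not pass the filter. S100a8 was at 0.336 to 0.754 CPM and 0.376 to 3.45 CPM. The sum of the lymphocyte markers was 49.0 to 65.7 CPM at month 4 and 90.9 to 103 CPM at month 9, without overlap, while their median change was 0.08. Krt8, an epithelial keratin listed as a gallbladder marker and also made by hepatocytes, was at 203 to 240 CPM at month 4 and at 996, 191 and 337 CPM at month 9. The part of these cells in the changes above was not tested.

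By month 12 (day 360) many of these levels in irradiated livers lay between those of months 4 and 9. Hspa8 was at 713 ± 191 CPM, Hspa5 at 1429 ± 390 CPM, Chordc1 at 83.9 ± 19.1 CPM and Sqle at 143 ± 51 CPM (n = 3). Hyal2 and Tns2 were at 31.3 ± 1.1 and 53.7 ± 13.6 CPM. Tnfrsf12a was at 3.87 ± 0.74 CPM, in the range of month 4, and Bcl2l11 at 7.04 ± 0.87 CPM. Noct, at 98.8 ± 54.7 CPM, and Hps4, at 12.7 ± 1.5 CPM, stood near their month 9 means. These month 12 values are descriptions and were not tested against month 9.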

How the data were processed

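The authors deposited raw read counts per Ensembl gene, 51826 identifiers in 30 libraries. Per the submitters' processing notes and the series text, reads were aligned to GRCm38 with STAR 2.5.3a and counted by its GeneCounts mode; the strand setting is not given in the sources used here. Names and coordinates came from Gencode M21 (51633 identifiers matched; the others held at most 0.0222% of counts). The totals, used as depth, are below the read numbers in the series text, a difference not resolved here.

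Counts of all 30 libraries entered 1 robust quasi-likelihood fit in edgeR 4.0.16 (R 4.3.3), with TMM factors, 1 coefficient per group and the low-count filter filterByExpr (minimum count 10, minimum total 15). Contrasts gave month 9 minus month 4 in each arm and their difference. Adjusted p-values are Benjamini-Hochberg values over all genes tested. They rest on a spread estimated over all groups, between samples that the labels call biological replicates. They do not rest on the spread of the compared livers alone. No 2 libraries of a compared group agreed within sampling noise (lowest chi-square per gene 11.2).

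The comparison, the 48 gene lists and the markers were chosen with earlier results of these data known. Named genes were, at 1 CPM or more and without overlap between groups, the 12 largest changes each way and the 10 smallest p-values; up to 4 called and the first 4 members of each list; the 8 smallest p-values of the difference between arms; and Gm26917 and Malat1. Predicted genes were left out, some genes are not reported here, and 9 genes were added after their values were seen.

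Alternatives were RLE and upper quartile factors, other count filters, DESeq2 1.42.0, limma 3.58.1 voom with quality weights, fewer libraries, a replicate block, the Gm26917 level as a covariate, a transcript GC offset and leaving out each library, which leaves 2 in a group whose spread is then taken from all groups. On simulated data with 19262 genes, the irradiated comparison recovered 67% of 2-fold and 97% of 4-fold changes with 8 false calls among 172, and the difference between arms 22% and 88%. The simulation gave every group the same spread per gene. The real irradiated libraries differed more at month 9 than at month 4 (chi-square per gene 51.7 to 101.8 against 12.8 to 16.2). The simulated rates therefore cannot be carried over to the real calls. Figures used Python 3.11.15 and matplotlib 3.10.9.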

Additional observations from a re-analysis of the deposited data

Results flagged for a closer look

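Genes named in the report whose change from month 4 to month 9 differed between irradiated and control livers are listed here with the difference of the log2 changes, irradiated minus control, each with an edgeR adjusted p under 0.05 for that difference. All values rest on 3 livers in each of 4 groups.

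The differences were positive for the genes of the heat shock list Hspa1b (4.91), Hspa1a (3.79), Hsph1 (3.38), Dnajb1 (3.33), Hsp90aa1 (2.48), Dnaja1 (2.38), Bag3 (2.20), Hspa8 (2.07), Chordc1 (1.79), Hspa4l (1.66), Hspe1 (1.57), Stip1 (1.29) and Hspd1 (0.96). They were also positive for the ER genes Creld2 (3.51), Hspa5 (2.30), Manf (2.24), Dnajb9 (2.10), Xbp1 (1.84), Hsp90b1 (1.46) and Eif2ak3 (1.22). For these ER genes control livers had lower means at month 9 than at month 4 while irradiated livers had higher means.

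Further positive differences belonged to Tnfrsf12a (4.02), Ppl (3.79), Slc10a2 (3.14), Pfkfb3 (2.89), Rcan1 (2.82), Srxn1 (2.27), Bcl2l11 (2.27), Nabp1 (2.09) and Tfrc (1.73). Smaller positive ones were those of Eml4 (1.38), Rock2 (1.32), Ints2 (1.30), Sult1d1 (1.29) and Eif4e (1.24).

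Negative differences were those of Zfp362 (-1.97), Mn1 (-1.94), Kdm6b (-1.35), Tnrc18 (-1.12), Hist1h1e (-1.08), Hist1h4h (-1.0), Tns2 (-0.98), Hyal2 (-0.98), Esrra (-0.85), Hps4 (-0.77), Sesn2 (-1.17) and Gdf15 (-2.78).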

How the results depend on the processing

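For irradiated livers, where 736 genes were called, the count was 1424 with DESeq2, 1473 with limma voom, 457 without the low-count filter, 442 with the transcript GC offset (chosen after seeing the data), 233 with the libraries of months 4, 9 and 12, 0 with the compared libraries alone and 92 with Gm26917 as a covariate. It was 867 with RLE and 810 with upper quartile factors. Leaving out 1 library gave 34 to 1808 called genes. For control livers, where 0 were called, the counts were 4 with RLE factors, 4 with upper quartile factors, 10 without the filter, 4 with 1 CPM in 3 libraries, 32 with DESeq2, 14 with limma voom, 1 with the compared libraries alone and 1 with the GC offset. Leaving out 1 library gave 0 to 12. For the difference between arms (804), DESeq2 gave 1549, limma voom 1662, no filter 442, the compared libraries alone 535, months 4, 9 and 12 499, the covariate 302 and the GC offset 347, and leaving out 1 library gave 248 to 1738. The share of higher calls went from 63.7% to 74.7% with RLE and to 49.1% with upper quartile factors in irradiated livers, and from 68.0% to 79.7% and 51.3% for the difference between arms.

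The replicate numbers were not taken to pair the livers, since in no pair of groups did all 3 same-number correlations exceed 0.1. They were -0.0525, 0.02 and -0.0721 between the irradiated months, 0.0283, 0.242 and 0.305 between the control months, 0.0987, 0.0753 and 0.114 between the arms at month 4 and 0.093, 0.198 and -0.0109 at month 9. As a hint from the data, a number correlated best with itself for 0, 2, 3 and 2 of the 3 numbers in these comparisons. With the replicate block 667 genes were called in irradiated livers, 0 in control livers and 739 for the difference. With the replicate block in the compared libraries alone the counts were 0, 133 and 811, and 6 of the 24 cholesterol genes were called higher in control livers.

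Of the 67 called genes named, 66 kept their call with DESeq2, 64 with limma voom, 56 with the GC offset, 32 with the libraries of months 4, 9 and 12, 20 with the covariate and 17 without month 9 replicate 1, and none changed sign. The cause of these differences was not tested. The fit of the 6 libraries alone changed the filter, the scaling, the estimated spread and the degrees of freedom together. Each group held 3 livers, and the parts of depth and of the spread between livers in the precision were not tested.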
